A study of Homo sapiens with 6 samples.

Results

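Voltage-gated and potassium channel genes were examined for occupancy by GSX2. This homeodomain protein patterns progenitors of the lateral ganglionic eminence, from which neurons of the striatum are born. Members were the protein-coding genes of RefSeq on hg38 whose symbols start with KCN, CACNA1, CACNA2D, CACNB or CACNG, or with SCN followed by a digit and A or B. This gave 134 of 19970 protein-coding genes on chromosomes 1 to 22 and X. Peaks were taken where a channel gene was the protein-coding span nearest to the strongest summit. Merging them over replicates by an overlap of 1 bp gave 157 of 15750 regions. The symbols SCN10A and SCN11A, which carry a second digit, fall outside the rule.

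The chromatin came from H9, an established human embryonic stem cell line, differentiated toward a lateral ganglionic eminence-like state. The cells carried wild-type GSX2 with a 2xFLAG tag under TRE3G, a promoter that responds to doxycycline. All samples received doxycycline at 100 ng/mL for 12 hours from day 10 and were taken at day 10.5. The 3 ChIP replicates, precipitated with the M2 antibody against FLAG, form the 1 group with values here, and the 3 input libraries had none and entered no analysis. There is therefore no contrast between conditions, and no value is compared with cells that lack the transgene. The labels number the replicates without saying whether each is a separate culture, so their spread may be technical. Peak lists hold no transcript levels, so neither the labelled cell type nor the expression of any channel gene could be checked.

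Voltage-gated channels open when the membrane depolarises. Sodium channels (SCN) drive the upstroke of the action potential, calcium channels (CACNA1) couple activity to secretion and transcription, and potassium channels (KCN) repolarise the cell and set its resting potential. Pore subunits make the conducting path, while auxiliary subunits (CACNA2D, CACNB, CACNG, KCNAB, KCNE, KCNIP and KCNMB) change their gating and their delivery to the membrane. Striatal projection neurons are known for strong inward rectification by Kir2 channels and for Kv4 and Kv7 currents, properties that are acquired as the neurons mature.

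GSX2 regions occurred at a minority of channel genes. A region seen in all 3 replicates is called shared. A shared region was nearest to 26 of the 134 channel genes (19.4%), against 12.3% of all protein-coding genes. The territory of a gene is the stretch of chromosome over which it is the nearest gene, and channel genes have long ones, with a median of 113.3 kb against 54.9 kb for all genes. Among other genes, weighted to the same 20 bins of territory length, 21.9% had a shared region, which corresponds to 29.4 of 134 genes. The ratio of the channel share to this share was 0.885. In the lists of the single replicates, 45, 38 and 43 channel genes were nearest to a peak in replicates 1, 2 and 3, against 24.7%, 20.6% and 24.0% of all genes. The corresponding ratios to genes of like territory were 0.854, 0.832 and 0.842, a mean of 0.842 ± 0.011 (SD, n = 3). All 3 replicates were on the same side of 1. The 3 lists share the same genes and territories, and the difference from other genes was not tested. At a stricter peak threshold, a −log10 q of 10 or more, 21 channel genes had a shared region and the ratio was 1.09, so the side of 1 depended on the peak threshold.

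**Figure D1:**
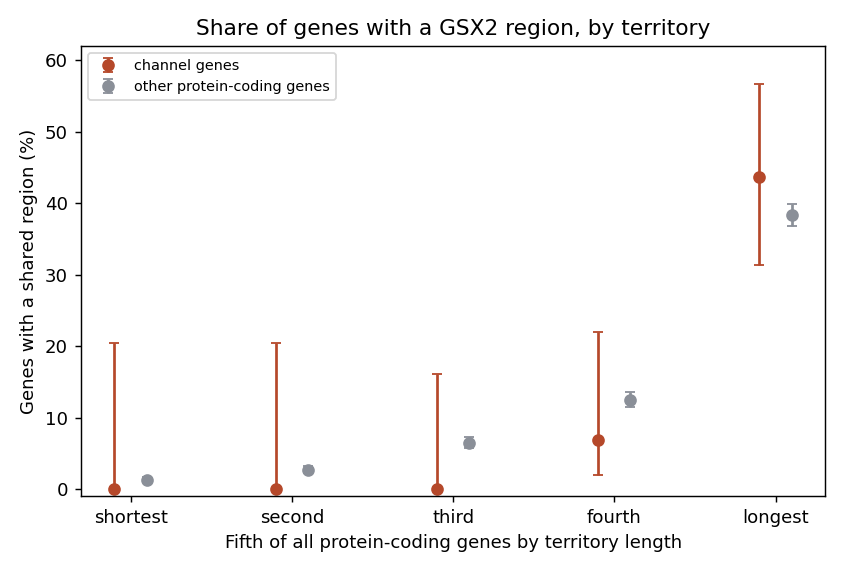
Share of genes nearest to a GSX2 region of all 3 replicates (y axis, %) in 5 equal classes of all protein-coding genes ordered by territory length (x axis), for channel genes and for other genes. Points are shares and bars are 95% Wilson intervals, which cover counting error only. In the longest class the shares are 43.6% for channel genes and 38.3% for other genes, and no channel gene of the 3 shortest classes has a shared region.

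Most channel genes with a shared region had long territories. Of the 55 channel genes in the class of longest territories, 24 had a shared region (43.6%, 95% Wilson interval 31.4 to 56.7%, counting error only), against 38.3% of other genes of that class. In the next class 2 of 29 had one (6.90%, 1.91 to 21.96%), against 12.5% of other genes. None of the 15, 15 and 20 channel genes in the 3 shortest classes had one, where 1.28%, 2.74% and 6.47% of other genes did. Counted per length, channel territories held 0.934 shared regions per Mb and those of other genes 1.16. For the peaks of single replicates, the ratio of these densities was 0.819, 0.719 and 0.770 (mean 0.769 ± 0.050, SD, n = 3). Territories include assembly gaps: KCNJ18, a Kir gene nearly identical to KCNJ12, had a territory of 2943.2 kb and no peak in any replicate.

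Of the 134 genes, 80 had no peak in any replicate and 54 had at least 1 peak (40.3%, against 32.6% of all genes and 48.2% of other genes of like territory). Over all protein-coding genes, 6508 had a peak in any replicate and 2447 had a shared region. Of the 54 channel genes, 28 had no shared region, and 13 of the 28 had a region in 2 replicates. With these, 39 of the 134 channel genes had a region in at least 2 replicates (29.1%), against 20.1% of all genes and 33.4% of other genes of like territory. Of the 157 channel regions, 38 were in all 3 replicates (24.2%, 95% Wilson interval 18.2 to 31.5%), 40 in 2 and 79 in 1. With replicate 2 left out, 58 were in both others. Over all genes the share in 3 replicates was 22.4%. Fold enrichment, the authors' ratio of a peak's height to the caller's background, had a median of 10.5 over the 38 shared channel regions (mean of 3 replicates per region, range 5.08 to 34.2), against 9.49 over all shared regions. The per-replicate medians at channel genes were 10.7, 9.44 and 11.1 in replicates 1, 2 and 3, against 9.64, 9.24 and 9.45 over all shared regions. Channel regions in 2 replicates had a median of 7.28-fold and those in 1 replicate 6.31-fold. Replicate 2 gave the lowest value of the 3 in 23 of the 38 regions, and its median was also the lowest over all shared regions. The difference in medians between channel regions and all shared regions was not tested.

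**Figure D2:**
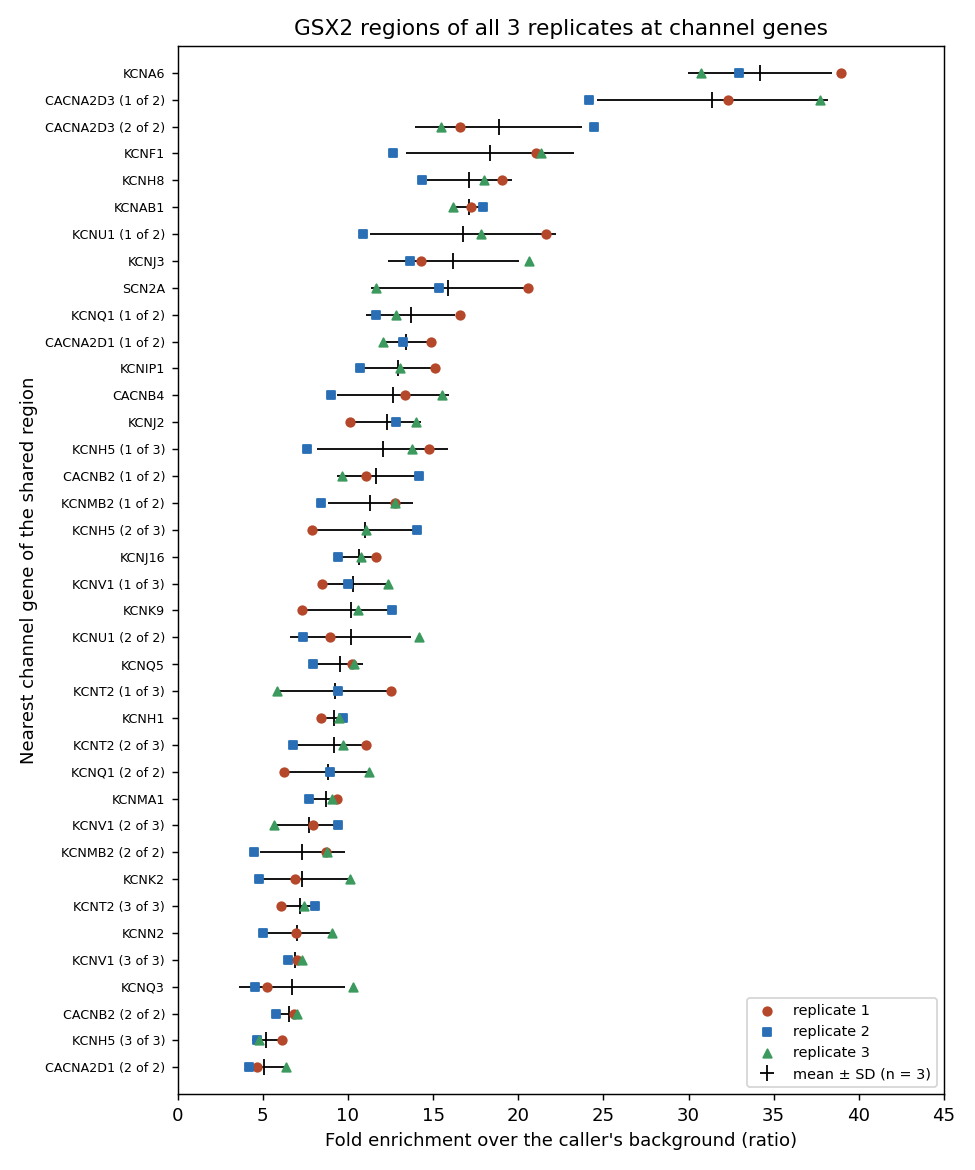
Fold enrichment (x axis, ratio over the caller's background) of each of the 38 shared regions at channel genes (y axis, nearest gene, in order of the mean). Coloured symbols are the 3 replicates and black marks the mean ± SD (n = 3). Regions at KCNA6 and CACNA2D3 stand above 30-fold on average, and most of the others lie between 5 and 20-fold with overlapping replicate values.

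Shared regions lay within 2 kb of an annotated start at 4 of the 134 channel genes, SCN2A, KCNF1, CACNA2D1 and KCNQ5, against 1.66% of all genes (2.99% of channel genes and 2.23% of other genes of like territory). Start sites were listed by RefSeq (GRCh38.p14) for 96 of the 134 genes. No shared region overlapped the 250 bases before any of their 147 listed starts, so the 4 windows nearest to a shared region are shown, to set the bases at these starts beside the summits that lie outside them. Capitals mark each TAAT, the core recognised by many homeodomains, on either strand (ATTA is TAAT on the other strand).
SCN2A, chr2:165239164-165239413, plus strand: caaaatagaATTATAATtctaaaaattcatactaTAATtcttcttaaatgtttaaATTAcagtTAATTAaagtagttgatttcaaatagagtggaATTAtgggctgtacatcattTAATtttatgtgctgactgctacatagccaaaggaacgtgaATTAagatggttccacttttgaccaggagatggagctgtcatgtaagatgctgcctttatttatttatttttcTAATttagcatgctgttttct
KCNF1, chr2:10911684-10911933, plus strand: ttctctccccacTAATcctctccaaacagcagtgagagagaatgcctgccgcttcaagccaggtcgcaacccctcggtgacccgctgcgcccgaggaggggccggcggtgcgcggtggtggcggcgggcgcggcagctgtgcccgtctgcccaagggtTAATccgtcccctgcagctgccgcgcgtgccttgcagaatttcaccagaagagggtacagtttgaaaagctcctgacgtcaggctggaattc
CACNA2D1, chr7:82443957-82444206, minus strand: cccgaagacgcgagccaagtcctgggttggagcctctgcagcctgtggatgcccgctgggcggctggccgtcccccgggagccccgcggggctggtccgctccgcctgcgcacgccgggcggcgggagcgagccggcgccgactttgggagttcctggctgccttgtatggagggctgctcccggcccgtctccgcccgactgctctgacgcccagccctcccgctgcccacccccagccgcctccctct
KCNQ5, chr6:72621814-72622063, plus strand: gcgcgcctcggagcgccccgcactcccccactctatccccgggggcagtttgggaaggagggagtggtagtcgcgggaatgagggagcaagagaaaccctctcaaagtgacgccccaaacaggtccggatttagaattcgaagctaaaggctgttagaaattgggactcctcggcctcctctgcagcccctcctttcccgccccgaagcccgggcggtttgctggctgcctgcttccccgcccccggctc

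The 4 windows differ in composition. The SCN2A window is AT-rich (29.2% G and C) and holds 10 matches of TAAT over both strands, 2 of which, 1 on each strand, form the palindrome TAATTA. The KCNF1 window (63.6% G and C) holds 2 matches, and the windows of CACNA2D1 (75.6%) and KCNQ5 (64.0%) hold 0. Over the 147 listed channel starts, 54 windows held TAAT (36.7%), against 40.2% of all 22131 windows of the same length. TAATTA was in 3 channel windows (2.04%) and in 3.16% of all windows. A pair of TAAT on 1 strand with 7 bases of any kind between them was in 1 channel window (0.68%) and in 0.506% of all windows. All were searched on both strands, and TAATTA and the pair contain TAAT. Of the 161 windows of any gene that a shared region overlapped, 73.9% held TAAT and 10.6% held TAATTA. These are matches of letters in these windows and were not taken as binding sites. The bases under the summits themselves were not read here.

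SCN2A encodes Nav1.2, the sodium channel of immature axons and of excitatory neurons. Its region (chromosome 2, 165238346 to 165238813) reached 20.6, 15.3 and 11.7-fold in replicates 1, 2 and 3 (15.9 ± 4.5, SD, n = 3). The summit was 0.911 kb before a listed start, and the 3 replicates placed it within 7 bp of each other. It was the 1 shared channel region within 1 kb of either end of its gene (2.63% of shared channel regions, against 7.33% of all shared regions). By gene this was 0.746% of channel genes, against 1.29% of all genes and 1.71% of other genes of like territory. These differences were not tested.

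KCNF1 encodes Kv5.1, a silent subunit that conducts only when joined to Kv2 subunits. The KCNF1 region (chromosome 2, 10909782 to 10910324) reached 21.0, 12.6 and 21.3-fold (18.3 ± 4.9, SD, n = 3), with replicate 2 lower than the others. Its summit was 1.839 kb before the start and differed by 1 bp between replicates.

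CACNA2D1 encodes an alpha2delta subunit that carries calcium channels to the membrane and binds gabapentin. A region 1.525 kb before its start (chromosome 7, 82445304 to 82445623) reached 14.9, 13.3 and 12.0-fold (13.4 ± 1.4, SD, n = 3). At KCNQ5, a Kv7 subunit of the M-current that limits repetitive firing, the region lay 1.398 kb past the start (chromosome 6, 72623329 to 72623594) and reached 10.3, 7.96 and 10.3-fold (9.52 ± 1.35, SD, n = 3).

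Among the pore genes of voltage-gated potassium channels, 9 of 40 had a shared region (22.5%, against 24.0% of other genes of like territory): KCNA6, KCNF1, KCNH1, KCNH5, KCNH8, KCNQ1, KCNQ3, KCNQ5 and KCNV1. They held 14 regions with a median of 9.89-fold. KCNA6, a Shaker-type delayed rectifier, had the strongest region of all channel genes (chromosome 12, 4857514 to 4858067). It reached 38.9, 32.9 and 30.7-fold (34.2 ± 4.2, SD, n = 3) and ranked 12 among the 3534 shared regions. Its summit lay 6.72 kb past the far end of KCNA6, between that gene and KCNA1, whose span begins 52.1 kb away. KCNA1 and KCNA5, the neighbouring Shaker genes of the same cluster, had no peak in any replicate. The cluster of KCNA10, KCNA2 and KCNA3 on chromosome 1 had no shared region, and KCNA2 had a single peak of 9.47-fold in replicate 2.

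The EAG and ELK genes of the KCNH family were represented by 3 members. KCNH8, an ELK-type channel, had a region 300.7 kb before its start (19.1, 14.3 and 18.0-fold, mean 17.1 ± 2.5, SD, n = 3). The next protein-coding gene on the other side of this region was SATB1, 402.2 kb away. KCNH5, the EAG2 channel, had 3 regions. The first, 36.1 kb past its far end, reached 14.7, 7.60 and 13.8-fold. A region inside the gene reached 7.88, 14.1 and 11.05-fold, and replicate 2, the lowest at the first region, was the highest at this one. The last, 43.5 kb past the far end, was among the weakest shared regions, with 6.11, 4.66 and 4.79-fold. KCNH1, the EAG1 channel, had 1 region inside the gene with little spread (8.39, 9.73 and 9.45-fold, mean 9.19 ± 0.71, SD, n = 3).

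KCNQ1, a Kv7 channel best known from heart and epithelia, had 2 regions inside its span on chromosome 11, in the imprinted domain that also holds the noncoding gene KCNQ1OT1. The stronger reached 16.6, 11.6 and 12.8-fold and lay 16.6 kb from KCNQ1OT1. The weaker reached 6.23, 8.96 and 11.2-fold and lay 21.4 kb from it. KCNQ3, a neuronal subunit of the M-current, had a region 5.87 kb outside its span with 5.27, 4.55 and 10.3-fold, the largest relative spread of the 38 regions (coefficient of variation 46.5%). In replicate 2 its −log10 q was 3.00, beside a smallest deposited value of 3. KCNV1, a silent subunit, had 3 regions (means of 10.3, 7.69 and 6.91-fold), all between 406.5 and 945.3 kb from a gene of 12.1 kb.

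Several voltage-gated potassium channels of striatal and interneuron physiology had no shared region. KCND2, which encodes the Kv4.2 channel of A-type current, had 6 regions, 1 in replicates 1 and 2 (8.44 and 10.6-fold) and 5 in single replicates. One of the 5 lay at −715 bp from a listed start and was called in replicate 3 alone (8.82-fold). KCNC2, a Kv3 channel of fast-spiking interneurons, had 2 regions, each in replicates 1 and 3 (12.4 and 10.8-fold at the stronger). KCNC1, another Kv3 channel, had no peak. Without read counts, a peak missing from 1 list cannot be told apart from one below the threshold there.

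Of the 16 inward rectifier genes (KCNJ), which hold the resting potential, 3 had a shared region (18.8%, against 21.2% of other genes of like territory). The other 13 had no peak in any replicate, while 32.6% of all protein-coding genes had a peak. The territories of the 16 genes have a median of 64.2 kb, and a share with any peak at like territory was not computed for them alone. KCNJ3, a subunit of the G protein-gated GIRK channels, had a region 134.4 kb past its far end (14.3, 13.6 and 20.6-fold, mean 16.2 ± 3.9, SD, n = 3), inside a noncoding gene. KCNJ2, the Kir2.1 channel, was nearest to a region 853.0 kb past its far end (10.1, 12.8 and 14.0-fold, mean 12.3 ± 2.0, SD, n = 3). KCNJ16, which forms channels with KCNJ10, had a region 8.79 kb past its far end (11.7, 9.44 and 10.8-fold, mean 10.6 ± 1.1, SD, n = 3). That region lies between the 2 genes KCNJ16 and KCNJ2, 25.1 kb from the KCNJ2 span. KCNJ4, the Kir2.3 channel, had no peak.

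Background potassium channels of the K2P family (KCNK) had regions at 2 of 15 genes (13.3%, against 13.9% of other genes of like territory). KCNK9, an acid-sensitive TASK channel, had 7.29, 12.6 and 10.6-fold at 16.0 kb. KCNK2, the mechanosensitive TREK-1 channel, had 6.90, 4.80 and 10.1-fold at 110.3 kb before its start. The coefficient of variation was 26.4% at KCNK9 and 37.0% at KCNK2, beside a median of 22.4% over shared channel regions. Replicate 1 was lowest at KCNK9 and replicate 2 lowest at KCNK2.

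Channels gated by calcium, sodium or pH had the highest share of any class, 4 of 8 (50.0%, against 34.5% of other genes of like territory, or 2.76 genes). KCNU1, a sperm channel of the same family as KCNMA1, had the strongest of their 7 regions, 248.1 kb outside its span (21.6, 10.9 and 17.8-fold, mean 16.8 ± 5.5, SD, n = 3), and another 14.1 kb outside (8.98, 7.34 and 14.2-fold). KCNT2, a sodium-activated channel, had 3 shared regions. The one inside the gene reached 11.1, 6.78 and 9.72-fold. The others were 678.2 and 1122.6 kb past its far end (7.20 ± 1.02 and 9.26 ± 3.34-fold, SD, n = 3). A further KCNT2 region lay 0.594 kb before its start in replicates 1 and 3 only (10.7 and 6.997-fold). KCNMA1, the BK channel opened by calcium and voltage, had 1 region inside the gene (9.35, 7.73 and 9.08-fold). KCNN2, the small-conductance SK2 channel, also had 1 inside (6.92, 5.01 and 9.09-fold). The difference between 4 and 2.76 genes was not tested. At a −log10 q of 10 or more the class had 2 of 8, the same share as calcium channel auxiliary genes (4 of 16). At that threshold it was therefore highest only jointly.

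**Figure D3:**
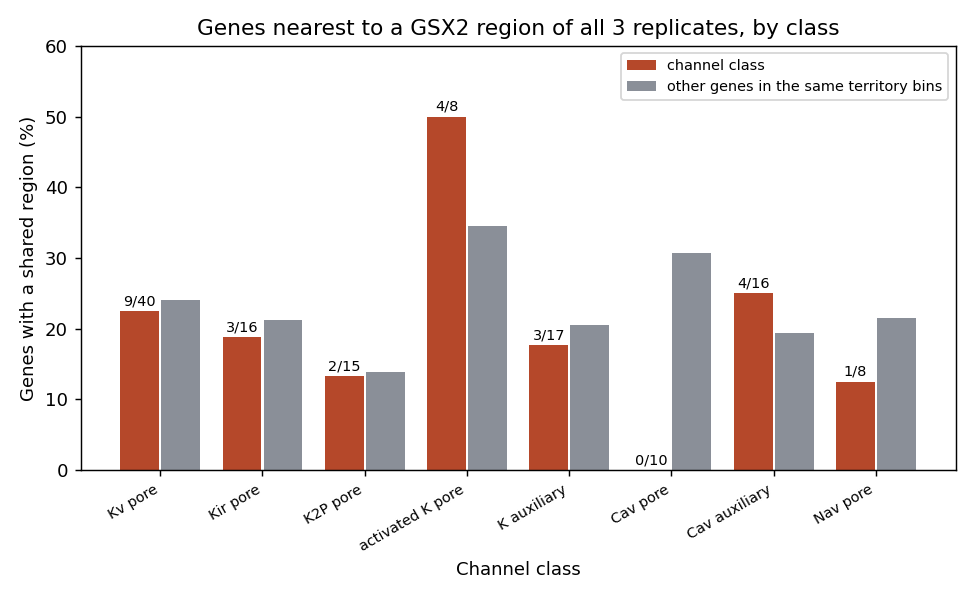
Share of genes nearest to a GSX2 region of all 3 replicates (y axis, %) for each of 8 channel classes (x axis), beside the share among other genes weighted to the same territory bins. The class of 4 sodium channel auxiliary genes, none of which had a shared region, is not drawn. Numbers above the bars are genes with a region over genes in the class. Calcium channel pore genes show 0 of 10 where genes of like territory have 30.6%, and activated potassium channels show 4 of 8.

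Potassium channel auxiliary genes had a region at 3 of 17 (17.6%, against 20.5% of other genes of like territory), and at 5 with replicate 2 left out. KCNAB1, a cytoplasmic beta subunit of Kv1 channels, had the most even region of the 38 (chromosome 3, 156475034 to 156475586), with 17.2, 17.9 and 16.2-fold (17.1 ± 0.87, SD, n = 3). It lies inside the gene. KCNIP1, a calcium-binding partner of Kv4 channels, had a region 16.4 kb before its start with 15.1, 10.7 and 13.0-fold (13.0 ± 2.2, SD, n = 3). KCNMB2, a BK beta subunit, had 2 regions 435.4 and 389.6 kb before its start (11.3 ± 2.5 and 7.33 ± 2.47-fold, SD, n = 3).

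None of the 10 calcium channel pore genes (CACNA1) had a shared region, where 30.6% of other genes of like territory did, or 3.06 genes of 10. Their territories have a median of 278.3 kb. They held 9 regions in 6 genes, all 9 in a single replicate, and the highest single peak was 8.54-fold. CACNA1C, the L-type channel Cav1.2, had 4 of the 9, called in replicate 1 once, in replicate 2 once and in replicate 3 for the other two. CACNA1D, the L-type channel Cav1.3, had 1 peak, in replicate 3 (7.24-fold). CACNA1A, the P/Q-type channel, also had 1 peak, in replicate 3 (4.81-fold), 0.227 kb before a listed start. It was the 1 peak of any replicate that overlapped the 250 bases before a listed channel start. The count of 0 was singled out after the values were seen, and its difference from like genes was not tested.

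Calcium channel auxiliary genes had shared regions at 4 of 16 (25%, against 19.3% of other genes of like territory, or 3.09 genes). The 4 were CACNA2D1, CACNA2D3, CACNB2 and CACNB4, with 7 regions. CACNA2D3, an alpha2delta subunit gene with a span of 952.0 kb, held the second strongest channel region (chromosome 3, 54821062 to 54821618), with 32.3, 24.2 and 37.7-fold (31.4 ± 6.8, SD, n = 3), rank 21 among the shared regions. A second CACNA2D3 region (chromosome 3, 54857959 to 54858383) reached 16.6, 24.5 and 15.5-fold (18.8 ± 4.9, SD, n = 3). Replicate 2 was the lowest at the first of these regions and the highest at the second. Their summits lie at 73.4% and 77.3% of the span. CACNB4, a cytoplasmic beta subunit that chaperones the pore, had a region inside the gene with 13.4, 9.03 and 15.5-fold (12.6 ± 3.3, SD, n = 3). CACNB2 had 2 regions inside, with 11.6 ± 2.3 and 6.52 ± 0.67-fold (SD, n = 3). CACNA2D1 had, besides the region before its start, a weak one inside the gene (4.68, 4.19 and 6.37-fold). It also had 11 regions of 1 or 2 replicates, the most of any channel gene. Of the 8 CACNG genes, which encode transmembrane subunits and relatives that escort AMPA receptors, none had a shared region, against 12.3% of all protein-coding genes. Their territories run from 24.7 kb at CACNG1 to 212.5 kb at CACNG3, and a share of like territory was not computed for them alone. CACNG2 had 1 region in replicates 1 and 3 (11.1 and 11.6-fold).

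SCN2A was the 1 sodium channel pore gene of 8 with a shared region (12.5%, against 21.5% of other genes of like territory, or 1.72 genes). Its neighbour SCN3A, 34.5 kb from the region, and SCN8A had no peak in any replicate. SCN1A, on the other side of the cluster on chromosome 2, had 3 peaks, each in a single replicate (at most 9.15-fold). None of the 4 sodium channel auxiliary genes had a shared region, against 3.58% of other genes of like territory, or 0.143 genes.

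Of the 38 shared channel regions, 15 were inside the gene span (39.5%, 95% Wilson interval 25.6 to 55.3%), against 51.3% of all shared regions. A further 6 were outside within 10 kb (15.8%, against 11.2% of all shared regions) and 5 between 10 and 100 kb (13.2%, against 16.9%). The other 12 were beyond 100 kb (31.6%, 19.1 to 47.5%, against 20.6% of all shared regions). Of the 16 outside regions at genes with a listed start, 8 were before the start and 8 past the far end. Of the 38 regions, 10 had another protein-coding span within 100 kb, a count that was not made over all shared regions. The median fold enrichment of channel regions was 9.52 inside spans, 12.0 outside within 100 kb and 9.77 beyond 100 kb, against 9.47, 9.68 and 9.35 for all shared regions. The nearest gene is a rule of assignment, and these data do not say which gene a distant region acts on.

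**Figure D4:**
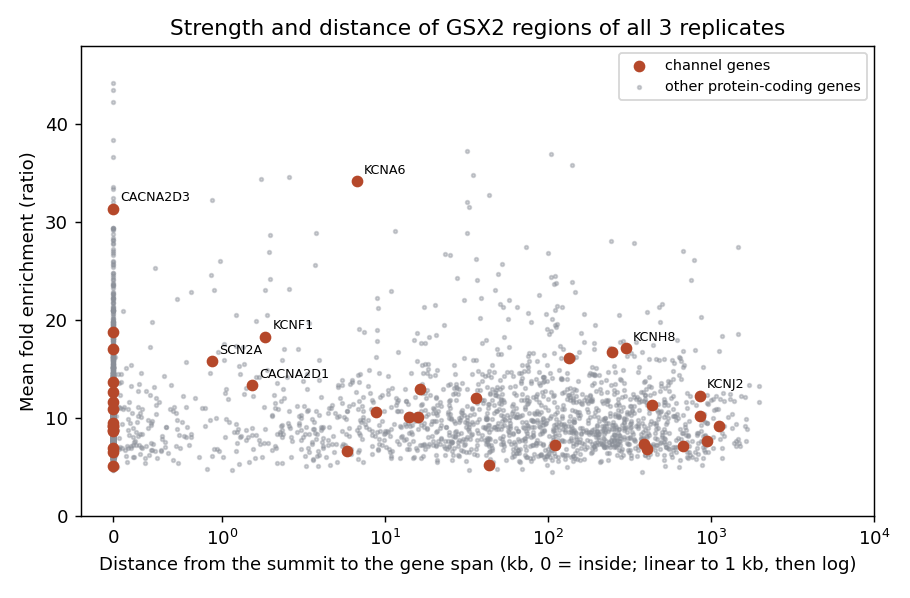
Mean fold enrichment (y axis, ratio, mean of 3 replicates) against distance from the summit to the nearest protein-coding span (x axis, kb, 0 for inside, linear to 1 kb and logarithmic beyond) for shared regions at channel genes and at other genes. Channel regions run from inside the gene to 1122.6 kb at KCNT2, regions of other genes reach farther out, and KCNA6 and CACNA2D3 stand highest.

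Of the 134 channel genes, 9 had at least 2 shared regions (6.72%, against 3.25% of all genes and 7.90% of other genes of like territory). Of these, 3 had 3 (2.24%, against 1.17% of all genes and 3.25% of other genes of like territory), namely KCNH5, KCNT2 and KCNV1. These 9 genes held 21 of the 38 regions (55.3%, against 49.2% of all shared regions), and their territories run from 421.4 kb at KCNQ1 to 1890 kb at KCNT2. Among the strongest 10% of all shared regions by mean fold enrichment there were 8 channel regions (21.1% of the 38), at KCNA6, CACNA2D3 (both), KCNF1, KCNH8, KCNAB1, KCNU1 and KCNJ3. The SCN2A region, ranked 360, fell just below. The 3 replicates placed the summits of shared channel regions within 25.5 bp of each other at the median (range 1 to 140 bp). Between replicates, fold enrichment had a median coefficient of variation of 22.4% at channel genes and 19.5% over all shared regions.

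**Figure D5:**
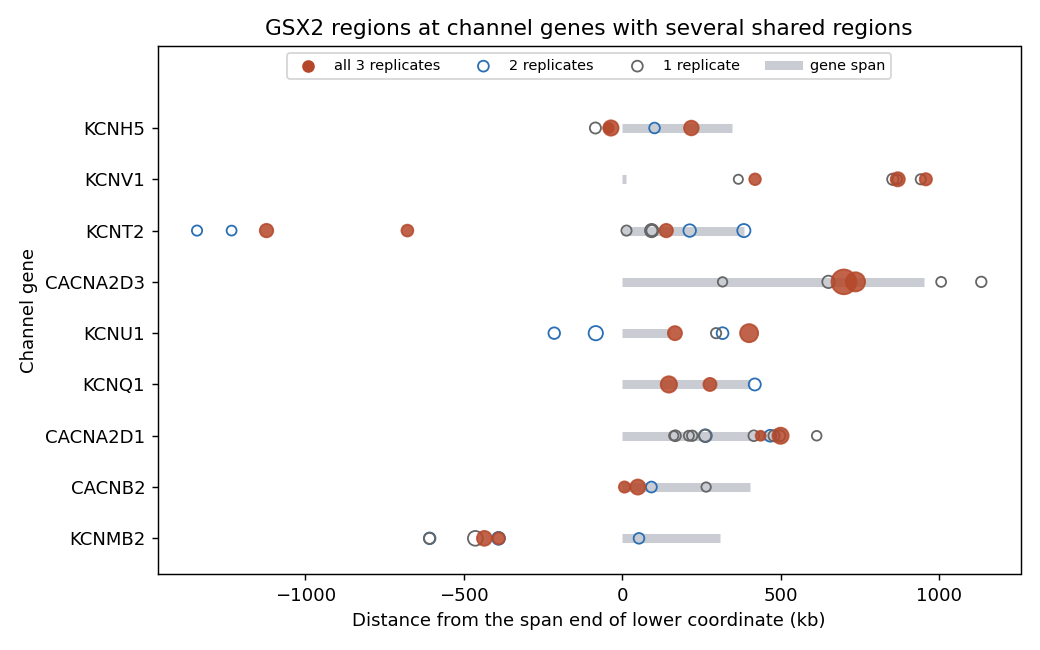
Positions of GSX2 regions at the 9 channel genes with at least 2 shared regions, as distance from the span end of lower coordinate (x axis, kb), with the gene span as a grey bar and the area of each circle in proportion to mean fold enrichment. Filled circles are regions of all 3 replicates and open circles those of 2 or 1. The filled circles of KCNV1 and KCNMB2 lie outside the span on 1 side, while those of CACNA2D3, CACNB2 and KCNQ1 lie inside it.

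A list of 37 genes outside the rule, called partner genes, gave a like picture. It holds genes whose products assemble with or work beside these channels, and also other channel genes. The latter include SCN10A, SCN11A, NALCN, HVCN1 and the HCN, CNGA, CNGB and TPCN genes, so the list is not one of auxiliary partners alone. Of the 37 genes, 8 had a shared region (21.6%, against 25.9% of other genes of like territory, or 9.59 genes). The strongest was inside DPP10, a Kv4 auxiliary subunit (22.1 ± 2.7-fold, SD, n = 3). FGF14 and FGF12, intracellular partners of sodium channels, had 14.9 ± 2.3 and 14.1 ± 1.3-fold. NALF1, a subunit of the NALCN leak channel, had 14.7 ± 2.4-fold, and CNTNAP2, which gathers Kv1 channels along axons, had 14.5 ± 4.5-fold. The 4 HCN genes, which carry the hyperpolarisation-activated current, had no shared region. Genes of ionotropic neurotransmitter receptors, the ligand-gated counterpart of these channels, had a shared region at 12 of 70 (17.1%, against 22.1% of other genes of like territory), a ratio of 0.777 beside 0.885 for the channel genes. Counted per length the order was the reverse, with 0.979 shared regions per Mb in receptor territories and 0.934 in channel territories. The differences between the families were not tested.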

How the data were processed

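FLAG ChIP-seq peaks of 3 replicates were analysed, and the input libraries had no values. Per the submitters' processing notes, Trim Galore, Bowtie2, SAMtools, MACS3 and deepTools were used on hg38, with versions and settings not given in the sources used here, nor whether the inputs served as control. The authors called peaks in each replicate separately. The deposited peaks carry fold enrichment (a ratio), −log10 p, −log10 q and a score, which is 10 times the deposited −log10 q, truncated. The smallest deposited −log10 q is 3. Read depth is unknown.

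Lines of 1 interval were joined, leaving 9859, 7471 and 9122 intervals in replicates 1, 2 and 3 on chromosomes 1 to 22 and X. The strongest summit placed each interval at the nearest protein-coding span of RefSeq GRCh38.p14, and intervals of 1 gene were merged over replicates. Shares of other genes were weighted to the channel genes' 20 bins of territory length. Promoter bases came from RefSeq. The computation used Python 3.11.15, numpy 2.4.6, pandas 2.3.3 and scipy 1.17.1, and was checked on simulated peaks.

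With 1 group there was no test and no p-value. Members and lists were chosen with earlier results of these data known. Genes were named by a rule: those with the 15 strongest regions, the 5 with most regions, the 3 strongest of each class, those with a region within 1 kb of a span end, a set of 15 channel genes whatever their values, and the 5 strongest partners. The other genes with a shared region were named after their values were seen. So were KCNA1, KCNA3, KCNA5, KCNA10, KCNJ18, CACNG1, CACNG2, CACNG3, the HCN genes and the KCNT2 region near its start. Alternatives varied the replicates, the peak threshold, the overlap, the assignment of genes, the bins and the motif. Motifs under the summits, planned in windows of 200 bp and 100 bp, were not analysed here, since no genome sequence was used. Results on some channel genes are not reported here.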

Additional observations from a re-analysis of the deposited data

How the results depend on the processing

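No test was made, so the alternatives move values and not calls. The ratio of the channel share to that of genes of like territory, 0.885, was 0.853 to 0.901 with a replicate left out, 0.871 with regions of at least 2 of 3 replicates, 0.839 within 100 kb, 0.873 with SCN10A and SCN11A, 0.907 with 10 bins and 0.976 with bins of span length. It passed 1 only among peaks of −log10 q of at least 10, at 1.09 (15.7% of channel genes and 14.4% of other genes), and the cause was not tested. The 38 shared channel regions became 45 to 58 with a replicate left out (58 without replicate 2), 78 in at least 2 replicates and 22 at the stricter threshold, as the looser and stricter rules entail. Their median fold enrichment, 10.5, was 8.93 to 10.1 with a replicate left out, 8.64 in at least 2 replicates and 13.2 at the stricter threshold. The share of channel regions in every replicate, 24.2%, was 37.5 to 40.6% with a replicate left out and 49.7% for at least 2 replicates. Partner genes with a region numbered 14 for at least 2 replicates, against 8 for all 3. TAAT in place of TAATTA was in 36.7% of channel promoters. Of the counts by class under these alternatives, 100 stayed within 1.5 times and 8 did not. With at least 2 replicates, genes with a region numbered 15 for the Kv pore (9 in all 3 replicates), 4 for K2P (2) and 7 for potassium auxiliary genes (3). At the stricter threshold they numbered 1 for K2P (2) and 2 for activated potassium channels (4). Within 100 kb they numbered 1 for Kir (3) and 1 for K2P (2), and without replicate 2 they numbered 5 for potassium auxiliary genes (3). KCNK2, KCNN2, KCNQ3, KCNQ5 and KCNT2 had no shared region at the stricter threshold. No paired analysis was possible because the input libraries, which share the replicate numbers, had no values. Depth is unknown, so a peak absent from a list could not be told apart from one under the threshold.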
